A study of Mus musculus with 2 samples.

Results

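The cells described here were 976 mature luminal cells of the adult mouse mammary gland, out of 3302 cells (29.6%, exact 95% interval 28.0 to 31.1%) in 1 single-cell library of total epithelium. They were chosen by their counts alone. A cell was taken when its summed counts of Prlr, Stc2 and Gpx3 were 10 or more, those of Krt5, Krt14 and Acta2 were under 8, and those of Trf, Csn3 and Elf5 were under 8. The other 2326 cells of the library were the comparison. Cells were sorted as Lin- CD24+, a gate against TER119, CD45 and CD31, proteins of red cells, white cells and vessels, from untreated FVB/NJ mice, an inbred strain, at 10 weeks of age, and 4 mice were pooled before capture in droplets. A second library of the series held 4771 sorted basal cells (Lin- CD29hi CD24+) of the same strain, age and pool size. With 1 library a condition and the mice pooled, no difference has a replicate check and no test was run. Intervals are exact 95% intervals that cover counting error only.

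The mammary epithelium is a bilayer, with luminal cells facing the duct and basal, or myoepithelial, cells outside them. Mature luminal cells are the layer's hormone-sensing cells: they carry the receptors for oestrogen, progesterone and prolactin, and pass the signals to their neighbours through secreted ligands such as amphiregulin and RANK ligand. Luminal progenitors, marked by Kit, Elf5 and the early milk protein genes, are the precursors of the cells that make milk.

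Levels are given as CPM, the summed counts of a gene over a set of cells for every 1000000 counts of all genes in that set. A count is a unique molecule, or UMI. For the 3 genes that chose the cells, the levels only describe the choice. Prlr, the prolactin receptor, stood at 2047 CPM and was found in 96.0% of the cells. Stc2, stanniocalcin 2, stood at 3436 CPM and Gpx3, the secreted glutathione peroxidase, at 12690.5 CPM. The sum over the 3 genes ran from 10 to 344 in a cell, with a median of 43, and 80.7% of the cells had 20 or more. The remaining markers, which the choice did not use, were Areg and Ly6d. Areg, amphiregulin, stood at 3346 CPM in the selected cells and 349 CPM in the other cells. Ly6d, a surface protein of the Ly6 family, stood at 3568 and 449 CPM. Both were higher in the selected cells, as the label mature luminal asks. Of the markers of the other lineages, Kit had 3 counts, Aldh1a3 7 and Oxtr 8 among all 976 cells, while Cd14, a progenitor marker, had more. The limits left out cells rich in progenitor or basal genes, so these low counts describe the choice and do not bear on the label.

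At the threshold, 105 cells lay just inside with a sum of 10 to 14. Their median depth was 2063 counts, Areg stood at 1792 CPM and Ly6d at 2794 CPM. A further 68 cells, also under 8 counts of the basal and of the progenitor genes, lay just outside with a sum of 5 to 9, at a median depth of 1754.5 counts, with Areg at 1457 CPM and Ly6d at 2415 CPM. Krt18, a luminal keratin, was found in 99.0% of the cells just inside and 97.1% of those just outside. Just outside, the levels were thus close to those just inside, and these 68 cells were shallower and stayed among the other cells. The 113 cells further out, with a sum of 0 to 4, had Areg at 312 CPM and Krt18 in 39.8%.

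The selected cells held 3285381 counts, between 823 and 12967 a cell with a median of 3196.5. Depth differed between the sets, with a median of 2602 counts in 668 progenitor cells and 1771 in 1208 basal cells, which were chosen by the same genes turned around. Progenitor cells here are those with 8 or more counts of Trf, Csn3 and Elf5 and below the limits of the other sums, and basal cells those with 8 or more of Krt5, Krt14 and Acta2. Another 155 cells passed both the mature luminal and the progenitor limits, and are called joined cells; 24 passed the mature luminal and the basal limits. Scrublet, a doublet caller, marked 41 of the 3302 cells, 0 of the 976 and 17 of those 24; no cell was removed. The barcodes of 28 cells occurred in both libraries, 7 of them (0.717%) among the mature luminal cells. Among the 976 cells, 11 (1.13%) had 3 or more counts of the collagen genes Col1a1, Col1a2 and Col3a1, and 9 of these had under 3 counts of keratins 8, 18 and 19.

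To ask which genes set mature luminal cells apart, levels were compared over 9121 genes with 50 or more counts in the library, without the 9 genes of the limits. A gene counts as higher or lower from a 2-fold ratio of CPM. Of these genes, 1000 (11%) were higher and 1580 (17.3%) were lower in mature luminal cells than in the other cells, and for 531 and 1121 of them the whole interval lay past 2-fold. The median over all genes was 0.08 on the log2 scale. The other cells include the joined cells and the cells just under the threshold. Of the 2071 Areg counts in the other cells, 1338 lay in the 155 joined cells.

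Among the 20 genes with the highest ratio were enzymes of amine and sulphur metabolism. Tph1 (chr7:46644641-46672537), tryptophan hydroxylase, which starts serotonin synthesis, stood at 1121 CPM in mature luminal cells, 85.2 in the other cells, 10.1 in progenitor and 5.86 in basal cells. It was 13.2 times as high as in the other cells (interval 11.99 to 14.5). Aoc1, which breaks down histamine, stood at 317 against 33.2 CPM, and Cdo1, cysteine dioxygenase, at 1522 against 181 CPM. Each of these 3 enzymes was over 8 times as high in the mature luminal cells. Cdo1 was found in 85.3% of these cells, but Aoc1 in 19.1%, and 10 cells held 26.3% of the Aoc1 counts.

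Secreted and surface proteins made up a further group. Areg (chr5:91139599-91148432), an EGF receptor ligand, stood at 3346 against 349 CPM, 9.60 times as high (interval 9.16 to 10.1), and at 44.7 and 22.2 CPM in progenitor and basal cells. The chemokine Cxcl15 stood at 1088 against 126 CPM and was found in 82.0% of the cells. Cxcl17, another chemokine, stood at 167 against 18.5 CPM. Prom1 (chr5:43993620-44102032), the surface protein CD133, stood at 183 against 17.0 CPM, a ratio of 10.8 (interval 8.72 to 13.4). The membrane proteins Slc5a5, the sodium iodide symporter, and Slc5a6, a vitamin transporter, had ratios of 10.4 and 8.95. Folr2, a folate receptor, stood at 119.6 CPM and the tight junction gene Cldn6 at 100.4 CPM, 10.9 and 9.47 times the level in the other cells. These ratios depend on the joined cells in the reference, where Folr2 stood at 52.5 CPM, Cldn6 at 39.4, Prom1 at 71.6 and Slc5a5 at 90.7. Against progenitor and basal cells alone, the log2 ratio went from 3.24 to 7.22 for Cldn6, from 3.45 to 6.19 for Folr2, from 3.43 to 6.07 for Prom1 and from 3.37 to 6.06 for Slc5a5. In progenitor cells Folr2 stood at 2.03 CPM, Prom1 at 2.54 and Slc5a5 at 4.06, and in basal cells at 1.25, 2.93 and 2.09. Cldn6 had 1 count in progenitor and 2 in basal cells. Col6a3, a chain of collagen VI, reached 225 CPM and a ratio of 11.9, and without the 11 collagen-containing cells its level was 223 CPM. Others of the 20 were Dgki, Cyp3a57, Sgms2, Tmem86a, Plac8, R3hdml and Ctsj, with ratios from 8.70 for R3hdml to 19.7 for Ctsj.

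**Figure D1:**
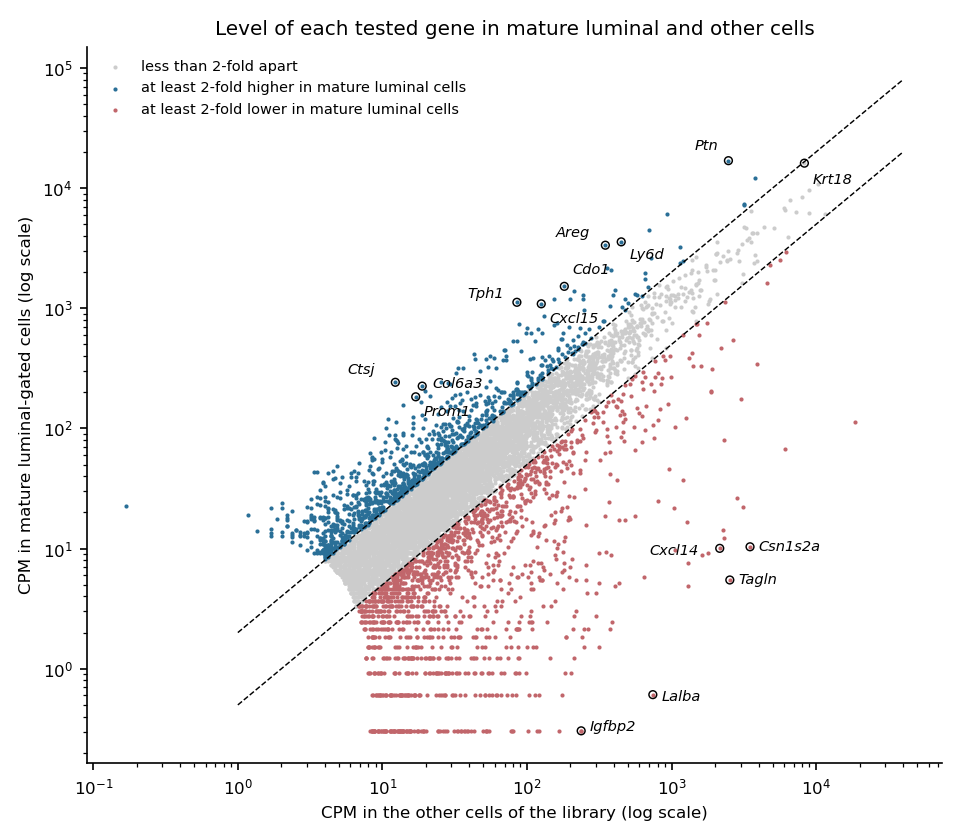
Level in CPM of each gene tested, in mature luminal cells on the vertical axis and in the other cells of the library on the horizontal axis, both logarithmic, with dashed lines at 2-fold. Each point is a gene, genes at 0 in mature luminal cells are not drawn, and named points include Tph1, at 1121 against 85.2 CPM, and Lalba, at 0.609 against 742 CPM.

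Ctsj, which encodes a cathepsin known from the placenta, had the highest ratio among the genes at 100 CPM or more and rested on few cells. It was found in 13 of the 976 cells; 1 cell held 592 of its 795 counts and 10 cells held 99.6%. When 20 counts of the choosing genes were asked for, its ratio fell below 1, at -0.58 on the log2 scale. Ctsr, a neighbouring gene of the same family, had 85.7% of its counts in 10 cells. Upk3a, a uroplakin, had 67.6% and Sftpd, surfactant protein D, 40.2%. By contrast, the 10 richest cells held 15.3% of the Tph1 counts, 11.6% of those of Prom1 and 7.61% of those of Areg.

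Tph1 was found in 45.3% and Prom1 in 34.5% of the mature luminal cells, and Ctsj rested on few cells. Promoters of these genes are shown to put a sequence beside their ratios. Each runs from 250 bases before to 50 bases after a RefSeq gene start in GRCm38.p6, on the minus strand, and reads 5′ to 3′; for Tph1 and Prom1, with 2 starts each, the one nearest the annotated gene end was taken. The 6 promoters of the highest genes (also Col6a3, Dgki and Folr2) were searched on both strands for TGTTTAC, bound by FOX factors, AGATAA, bound by GATA factors, AGGTCA, a nuclear receptor half-site, and TATAAA. Capitals mark a match, and the single match in the 6 was AGGTCA in Ctsj, which starts at base -226 from the gene start. Of 32817 promoters of this length, 3.65% held TGTTTAC, 11.2% AGATAA, 16.3% AGGTCA and 13.6% TATAAA. A match describes letters in this window and says nothing of binding.
Tph1, chr7:46672488-46672787: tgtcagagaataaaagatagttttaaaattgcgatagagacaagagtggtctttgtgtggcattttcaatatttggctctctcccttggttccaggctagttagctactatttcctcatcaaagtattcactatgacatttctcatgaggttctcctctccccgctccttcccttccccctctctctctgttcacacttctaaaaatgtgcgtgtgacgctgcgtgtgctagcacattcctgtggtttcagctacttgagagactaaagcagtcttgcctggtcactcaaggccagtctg
Prom1, chr5:44101687-44101986: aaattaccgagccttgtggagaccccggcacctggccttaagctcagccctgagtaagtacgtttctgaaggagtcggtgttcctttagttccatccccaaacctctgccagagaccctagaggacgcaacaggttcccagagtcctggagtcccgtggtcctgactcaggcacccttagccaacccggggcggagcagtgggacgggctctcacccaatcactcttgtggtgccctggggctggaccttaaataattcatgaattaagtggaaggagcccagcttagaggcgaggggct
Ctsj, chr13:61005876-61006175: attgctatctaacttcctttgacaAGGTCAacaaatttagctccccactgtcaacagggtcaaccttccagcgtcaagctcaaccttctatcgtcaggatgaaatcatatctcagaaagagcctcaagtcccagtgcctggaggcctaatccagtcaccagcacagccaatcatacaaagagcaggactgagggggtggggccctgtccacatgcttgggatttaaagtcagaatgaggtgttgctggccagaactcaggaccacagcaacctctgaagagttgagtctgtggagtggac

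Shares of cells in which a gene was found depend on depth, so cells were also thinned to 1000 counts, which left out 21 mature luminal, 20 progenitor and 55 basal cells under that number. Areg was found in 76.5% of the mature luminal cells before thinning and in 63.2% (60.1 to 66.3%) after it, against 3.09% of progenitor and 1.56% of basal cells after thinning. Shares in the progenitor and basal cells include any free RNA of the droplets. Tph1 went from 45.3% to 32.3% (29.3 to 35.3%) of mature luminal cells and stood at 1.39% and 0.867% in the others. Of the joined cells, 50.6% had Areg and 21.4% had Tph1 after thinning. Both genes were thus found in part of the mature luminal and of the joined cells, and in few progenitor or basal cells. At 1000 counts a mature luminal cell had a median of 609 genes, a progenitor cell 532 and a basal cell 597.

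**Figure D2:**
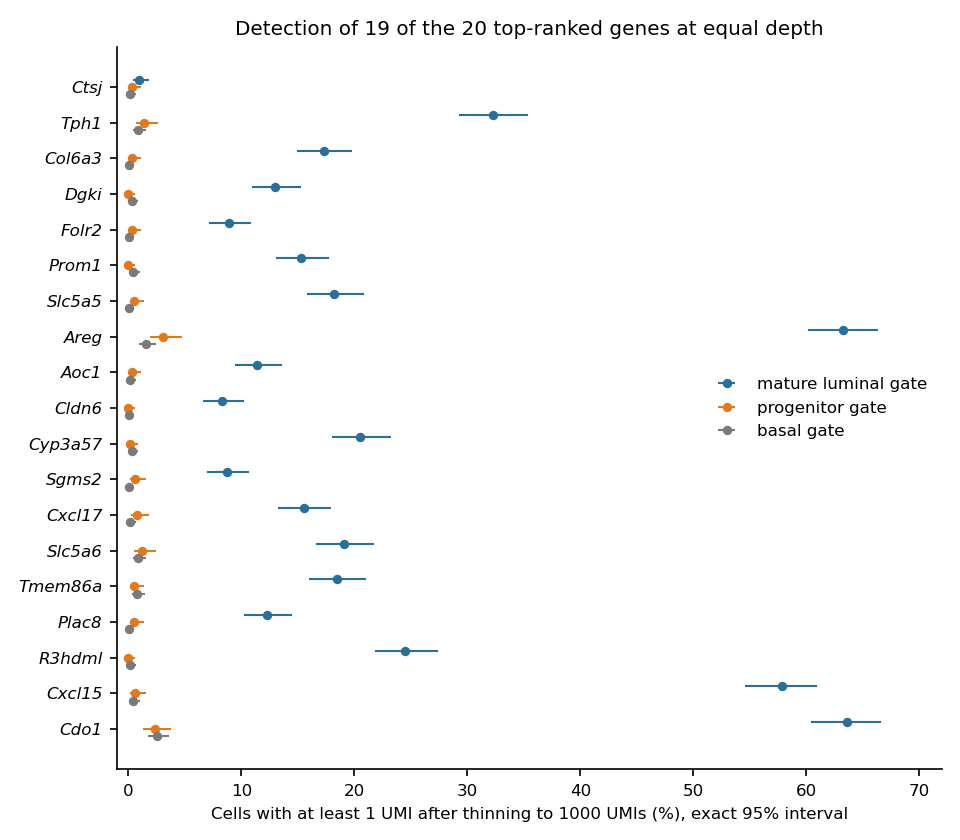
Share of cells with at least 1 count of each of 19 of the 20 highest genes after thinning every cell to 1000 counts, in percent, for mature luminal, progenitor and basal cells; bars are exact 95% binomial intervals. Areg is found in 63.2% of mature luminal cells, and in 3.09% of progenitor and 1.56% of basal cells.

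Against progenitor cells alone, 2010 genes (22.0%) were higher and 1153 (12.6%) lower. The median gene was already 0.33 higher on the log2 scale, a shift that counts toward the first number: of the genes past 2-fold, 63.5% were higher, and 45.1% after scaling by the median of ratios. Slc7a2, an arginine transporter, was 92.4 times as high, at 141 against 1.52 CPM. Tph1 was 110.5 times as high and Areg 74.9 times. Dcn, decorin, a matrix proteoglycan best known from fibroblasts, stood at 1423 against 16.2 CPM. It was not particular to mature luminal cells, at 335 CPM in basal cells, a ratio of 4.25, and 712 CPM in joined cells. After thinning, Dcn was found in 23.8% of mature luminal, 18.2% of basal, 24.0% of joined and 1.23% of progenitor cells. Before thinning, it was found in 33.7% of all mature luminal cells. Among the 965 without the collagen-containing cells it was found in 33.0%, at a level of 1250 CPM. Most of the mature luminal cells with Dcn were thus not the collagen-containing ones.

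Against basal cells, 1795 genes (19.7%) were higher and 1846 (20.2%) lower, around a median of 0.04. Dkkl1, a secreted glycoprotein related to the Dickkopf family, stood at 294 CPM against 0.418 and was found in 53.5% of the mature luminal cells. It was not particular to them, at 176 CPM in progenitor cells, a ratio of 1.67, and 259 CPM in joined cells. Basal cells held 1 count of it, which puts the ratio at 702 with an interval of 126 to 27764. AW112010, Bcl2l14 and Prr15l were also among the 10 highest, found in 36.8%, 23.9% and 23.8% of the cells. Krt19 and Krt7, keratins of luminal cells, stood at 56.3 and 63.6 times the basal level.

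The genes with the lowest ratios included Lalba and Csn1s2a, which are milk genes, and Tagln of smooth muscle. Lalba, the alpha-lactalbumin of milk, had 2 counts in all mature luminal cells, 0.609 CPM, against 742 CPM in the other cells and 1831 CPM in progenitor cells. Csn1s2a, a casein, stood at 10.3 against 8943 CPM in progenitor cells, and the mucin Muc15 at 0.304 against 403 CPM. Tagln, the smooth muscle gene transgelin, stood at 5.48 CPM against 5750.3 in basal cells, and Igfbp2 had 1 count against 556 CPM. In the joined cells Lalba stood at 739 CPM and Csn1s2a at 2955 CPM. Of the 10 lowest genes Tnnt3, a skeletal muscle troponin, stood apart, since only 50 of its 1044 counts in the other cells lay in progenitor and 1 in basal cells. It was found in 0.516% of the other cells, so its ratio rested on few cells.

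All 21 tested genes of the list of progenitor and milk genes were lower than in the other cells, with a median of -6.25 on the log2 scale, and all 20 genes of the basal list were lower, with a median of -6.82. The cells were chosen to lack genes of these lineages, so these counts describe the choice. A gene at 0 entered each median at a floor of 3 counts. On the progenitor list, Kit, the stem cell factor receptor, had 3 counts, Cd14, a lipopolysaccharide co-receptor, 37.1 CPM and Ltf, lactoferrin, 16.7 CPM. On the basal list, Trp63, the basal lineage factor, stood at 0.304 against 79.5 CPM in basal cells and Vim, vimentin, at 37.1 against 822 CPM.

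The genes of hormone sensing were read next. Of 26 genes of hormone receptors and partner transcription factors, 22 were tested: 9 were higher than in the other cells and 5 lower. The shares over all genes were 11% and 17.3%, so the count of lower genes was near its share. The median was 0.54 on the log2 scale beside 0.08 over all genes. Esr1 (chr10:4611593-5005614), the oestrogen receptor, stood at 29.5 CPM (23.9 to 36.0) in mature luminal cells, 4.57 in progenitor and 3.35 in basal cells. Pgr (chr9:8899833-8968611), the progesterone receptor, stood at 64.2 CPM (55.9 to 73.5) against 1.01 and 2.93. Foxa1, which opens chromatin for the oestrogen receptor, stood at 66.7 CPM, 6.39 times the level in the other cells. All 3 were sparse: Esr1 was found in 8.09%, Pgr in 16.9% and Foxa1 in 16.5% of the cells. The joined cells had them too, with Esr1 at 31.0 CPM, Pgr at 28.6 CPM and Foxa1 at 39.4 CPM. Esr1 was found in 13.5% of the joined cells, which were deeper, with a median of 5406 counts. After thinning to 1000 counts it was found in 1.30% of the joined and 2.83% of the mature luminal cells.

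Among the partner factors, Cited1, a transcriptional co-activator of the oestrogen receptor, was found in 74.4% of the cells at 1405 CPM, 6.65 times the level in the other cells. The homeobox gene Msx2 had a ratio of 6.07, Myb of 5.37, Batf of 4.97 and Tbx3 of 3.45. Gata3, the luminal lineage factor, was at 253 CPM and 2.13 times as high, and at 107 CPM in progenitor cells. Xbp1, a factor of the secretory pathway, stayed under 2-fold at 1.71. Lower genes included the vitamin D receptor Vdr, at 7.91 against 64.1 CPM, the glucocorticoid receptor Nr3c1 with a ratio of 0.189, and Tfap2c at 15.8 against 256 CPM. The receptors for vitamin D and glucocorticoids were thus lower than in the other cells, and those for oestrogen and progesterone higher.

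**Figure D3:**
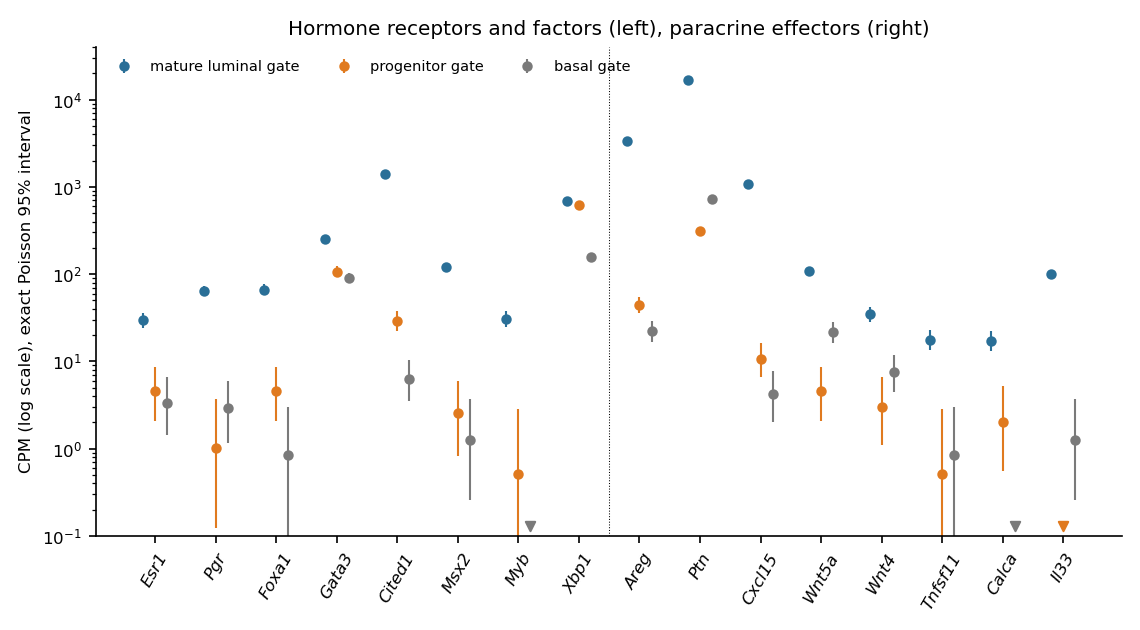
Level in CPM, on a log axis, of 8 hormone receptor and partner factor genes (left) and 8 paracrine effector genes (right) in mature luminal, progenitor and basal cells, with exact 95% Poisson intervals; triangles stand for sets with 0 counts. Pgr stands at 64.2 CPM in mature luminal cells against 1.01 and 2.93 CPM in progenitor and basal cells, and Xbp1 at 685 against 612 and 156 CPM.

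Whether receptors and ligands occurred in the same cells was asked in 955 mature luminal cells thinned to 1000 counts, in 10 pairs. At this depth 27 cells had Esr1, 66 had Pgr and 0 had both, which allows up to 12.8% of the cells with Esr1, against 7.11% of the cells without it. Foxa1 was found in 64 cells, of which 0 had Esr1 and 4 had Pgr. With so few cells a joint pattern was not detectable at this depth. Areg, found more widely, was in 62.1% (49.3 to 73.8%) of the cells with Pgr and 63.3% of those without, and in 74.1% (53.7 to 88.9%) of the cells with Esr1 and 62.9% of those without. Both shares without the receptor lay inside the interval of the cells with it, and cells of 1 library are no replicates. Tnfsf11 and Wnt4, progesterone targets, were found in 0 of the 66 cells with Pgr, which allows up to 5.44%, and in 1.46% and 3.71% of the others.

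Ly6a, the surface protein Sca1 that is used to sort hormone-sensing luminal cells, was found in 303 of the 955 cells. Of these, 56.1% (50.3 to 61.8%) had Areg, against 66.6% (62.8 to 70.2%) of the cells without Ly6a. Pgr was in 6.93% and 6.90% of the same cells. Areg was in 60.5% (56.2 to 64.7%) of the cells with Cited1 and 66.6% (61.9 to 71.0%) of those without, with intervals that overlapped.

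Ligands and other paracrine effectors were the list with the highest median but for the genes that the study itself chose. Of 20 genes 16 were tested, 9 were higher and 6 lower than in the other cells, with a median of 1.71. Over all genes 11% were higher and 17.3% lower. Ptn, the heparin-binding growth factor pleiotrophin, stood at 16910.1 CPM against 2475, a ratio of 6.83, and was found in 98.9% of the cells. The WNT ligands Wnt5a, Wnt4 and Wnt7b had ratios of 3.99, 4.04 and 2.67. Tnfsf11, RANK ligand, stood at 17.7 CPM (13.4 to 22.8) against 3.20 and was found in 3.48% of the cells. Calca, the calcitonin gene, stood at 17.3 against 2.19 CPM and the cytokine Il33 had a ratio of 5.30. The lower genes were Cxcl12, Tgfb2, Adamts1, Edn1, Rspo1 and Vegfa. Rspo1, a WNT amplifier, stood at 0.304 against 8.41 CPM and Edn1, endothelin 1, at 0.609 against 26.9 CPM.

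Of 14 genes of prolactin and JAK-STAT signalling, all tested, 2 were higher and 3 lower, with a median of -0.17. These are shares near the 11% and 17.3% over all genes, and the values that follow describe single genes. Stat5a, the main transducer of the prolactin receptor, stood at 91.0 against 32.3 CPM, a ratio of 2.82, and the phosphatase gene Ptpn1 at 334 against 128 CPM. The feedback inhibitors Socs1, Socs3 and Cish were the lower genes, with ratios of 0.336, 0.473 and 0.458. The kinase gene Jak2 stood at 11.6 against 7.40 CPM and did not pass 2-fold.

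Keratins and junction genes parted mature luminal cells from basal cells more than from progenitors. Of 19 genes, 5 were higher and 3 lower than in the other cells, 3 and 1 against progenitor cells, and 14 and 3 against basal cells. The shares over all genes were 11% and 17.3%, 22.0% and 12.6%, and 19.7% and 20.2% against the same sets. Both counts against progenitor cells were thus below their shares, and the counts of lower genes were at no point clearly above theirs. Krt7 stood at 2181 CPM, 6.12 times the level in the other cells, and Krt19 at 12090.2 CPM, 3.18 times. Krt18 and Krt8, keratins of all simple epithelia, lay just under the limit with ratios of 1.94 and 1.83. Of the claudins, which seal tight junctions, Cldn8 had a ratio of 4.89 and Cldn4 of 2.05. With the CPM averaged over cells, 9 genes of this list rather than 5 were past 2-fold.

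Surface proteins used in sorting followed, with 8 of 18 tested higher and 5 lower than in the other cells and a median of 0.76. The shares over all genes were 11% and 17.3%. Ly6d had a ratio of 7.95, the tetraspanins Tspan1, Cd82 and Cd9 of 7.31, 3.53 and 2.32, and Cd24a, which the sort itself used, of 2.19. Ly6a was found in 50% of the cells at 618 CPM, 4.88 times the level in the other cells. Lower were Kit and Cd14, with 37.1 against 1203 CPM for Cd14, and the mucin gene Muc1, at 2.13 against 45.4 CPM. Itgb1, the CD29 by which basal cells were sorted, stood at 176 against 483 CPM in basal cells.

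A list of 29 mature luminal genes came from a gene cluster that the study derived from its own single-cell data, so its direction is not independent evidence. Of 28 tested, 23 were higher and 1 lower than in the other cells, with a median of 2.63, and against basal cells 28 were higher. The shares over all genes were 11%, 17.3% and 19.7%. Crym, crystallin mu, which binds thyroid hormone, stood at 233 against 29.4 CPM, and Arg1, arginase, at 856 against 131 CPM. Fgb, the fibrinogen beta chain, stood at 1202 against 199.8 CPM. Gpd1, a glycerol phosphate dehydrogenase, stood at 33.2 against 38.2 CPM, within 2-fold. The gene that was lower was Clu, at 735 against 1499 CPM.

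**Figure D4:**
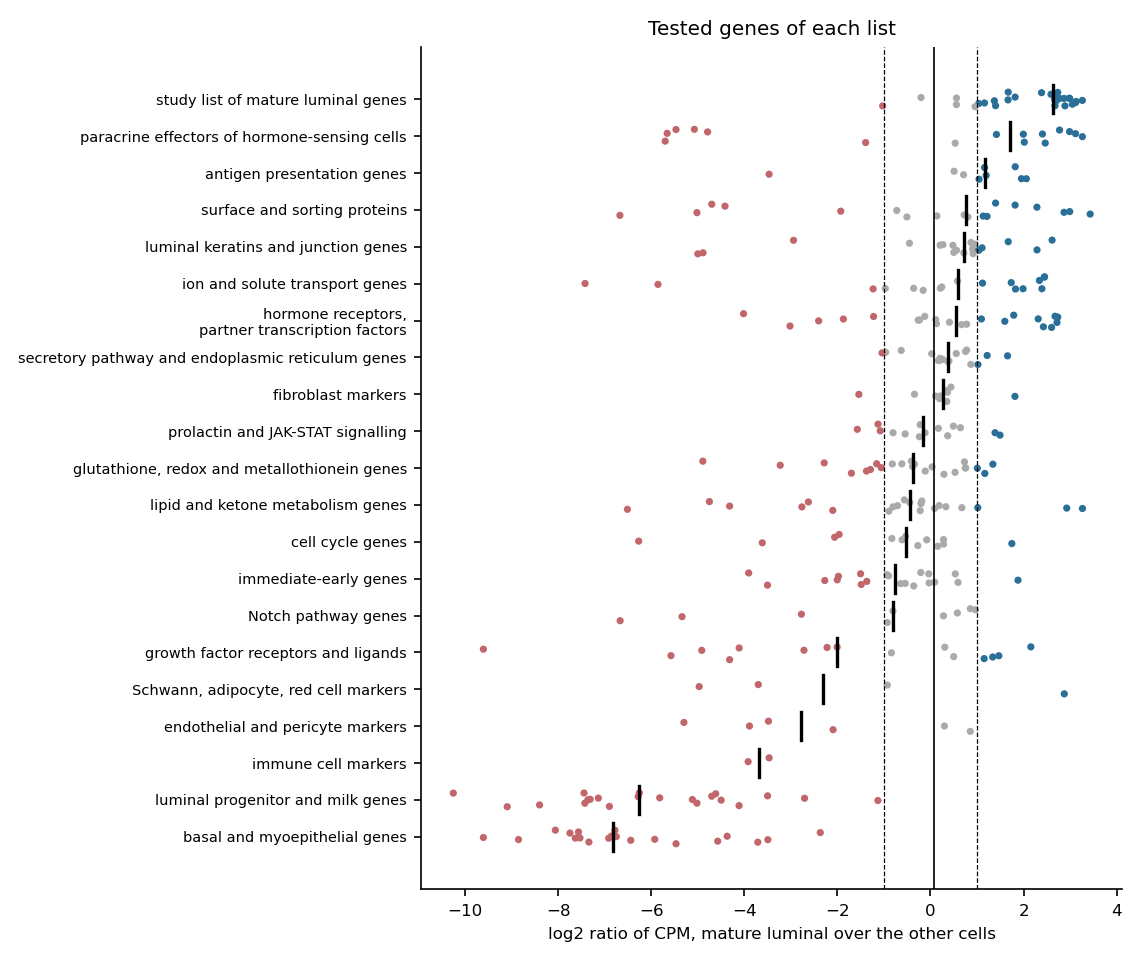
Log2 ratio of CPM in mature luminal cells over the other cells for each tested gene of the 21 lists, with 1 point a gene, a bar at the median of each list, dashed lines at 2-fold and a solid line at the median of all genes. The paracrine effectors have a median of 1.71, the immediate-early genes of -0.77, and the basal list of -6.82.

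Growth factor receptors and ligands were mostly on the lower side, with 4 of 15 tested higher, 8 lower and a median of -2.01. Over all genes 11% were higher and 17.3% lower. Erbb2 stood at 26.8 against 10.6 CPM and Erbb3 at 27.7 against 12.5 CPM, whereas Egfr, the receptor of amphiregulin, had 4 counts in all mature luminal cells against 21.0 CPM. Igf1r, the IGF1 receptor, stood at 1.52 against 30.3 CPM. The receptor Fgfr2 was higher at 2.77 times and so was Btc, betacellulin, at 4.46 times. The binding proteins Igfbp5 and Igfbp7 had ratios of 0.0210 and 0.0332.

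Genes of ion and solute transport had 8 of 17 tested higher and 3 lower, beside 11% and 17.3% over all genes, with a median of 0.58. The count of lower genes was near its share. Aqp5, a water channel, stood at 1282 CPM against 244 and was found in 78.8% of the cells, and Aqp3 was 3.33 times as high. Slc12a2, the sodium potassium chloride co-transporter, had a ratio of 5.47, the mechanosensitive channel gene Piezo2 of 5.45, the sodium channel subunit Scnn1a of 3.97 and the iron exporter Slc40a1 of 3.55. Kcnn4, a potassium channel, had 0 counts in mature luminal cells against 52.8 CPM in the other cells, and was at least 57.9-fold lower when 3 counts are taken as the floor. Genes for water, sodium, chloride and iron transport were thus among the higher ones.

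In lipid metabolism 3 of 21 tested genes were higher, a share near the 11% over all genes, and 6 were lower, against 17.3% over all genes, with a median of -0.45. The higher genes included Acsbg1, an acyl-CoA synthetase, at 62.7 against 8.25 CPM, and Cpt1a, which carries fatty acids into mitochondria, at 25.9 against 12.8 CPM. Apoe stood at 67.3 against 6138 CPM and the lipid droplet gene Plin2 at 96.2 against 653 CPM. With a median below that of all genes, the list as a whole was not on the higher side.

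Redox genes had 3 of 23 tested higher and 8 lower, beside 11% and 17.3% over all genes, with a median of -0.39, so the count of higher genes was near that background. The peroxiredoxins Prdx2 and Prdx6 had ratios of 2.01 and 2.25 and the glutathione transferase Gstm2, whose counts may be split with its paralogs, of 2.53. Nqo1, a quinone reductase, stood at 1.83 against 54.2 CPM, Mgst1 at 201 against 1885, and the metallothioneins Mt1 and Mt2 had ratios of 0.409 and 0.385. Of the secretory pathway list 3 of 17 were higher and 1 lower, within 2 genes of what the shares over all genes give, with a median of 0.37. Sdf2l1, Sec61b and Pdia6 had ratios of 3.15, 2.33 and 2.03, Herpud1 of 0.486, and 5 were higher with the CPM averaged over cells.

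Antigen presentation genes had 6 of 9 tested higher and 1 lower, beside 11% and 17.3% over all genes, with a median of 1.16. The immunoproteasome subunits Psmb9 and Psmb8 stood at 182 and 965 CPM, 4.17 and 3.88 times the level in the other cells. The peptide transporters Tap2 and Tap1 had ratios of 3.53 and 2.06, H2-D1, a class I heavy chain with near-identical relatives, of 2.29, and B2m, its light chain, of 2.24. The lower gene was Cd74, the class II invariant chain, at 1.83 against 20.2 CPM. The 6 higher members belong to class I presentation, 2 tested genes were within 2-fold, and 4 of the 13 listed had too few counts to test. Cd74 is the only class II gene described, so these values do not set class I against class II.

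Of the immediate-early genes, 1 of 20 tested was higher and 8 were lower, beside 11% and 17.3% over all genes, with a median of -0.77. Klf2 stood at 2636 against 716 CPM. Jun and Fos, with ratios of 1.51 and 0.866, were within 2-fold, and Egr1, Myc, Ier3 and Fosl1 were lower at 0.353, 0.249, 0.207 and 0.0667. Of 13 cell cycle genes tested 1 was higher and 4 lower, with a median of -0.53. The count of higher genes was near the 11% over all genes, and the values that follow describe single genes. Mcm2 had a ratio of 3.36, the inhibitor gene Cdkn1a of 0.256, and Ccnd2 had 2 counts. Among 9 tested Notch genes 0 were higher and 3 were lower, again beside 11% and 17.3%, so the count of higher genes was near its share. Hey1 stood at 2.13 against 86.2 CPM, Nrarp at 7.61 against 52.0, and Dll1, a ligand, at 1.83 against 186.

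Markers of other cell types were read in the same cells. Of the fibroblast markers 1 of 10 tested, Dcn, was higher and 1, Fgl2, lower than in the other cells, and 10 were higher than in progenitor cells. The shares over all genes were 11%, 17.3% and 22.0%, so the first 2 counts lay near their shares. Without the 11 collagen-containing cells, Col3a1 went from 285 to 5 counts, Col1a1 from 107 to 1, Col1a2 from 81 to 0, Clec3b from 129 to 0 and Pi16 from 254 to 4, and 7 markers were then lower than in the other cells. The levels of these 5 genes in mature luminal cells thus came almost wholly from 11 cells, and that of Dcn did not. Of 12 immune markers 9 were at 0, and of 6 tested endothelial and pericyte markers 0 were higher and 4 lower, beside 11% and 17.3%. Of 4 tested Schwann cell, adipocyte and red cell markers, 1 was higher and 2 lower than in the other cells, too few to set against these shares. The highest log2 ratio on that list was 2.87 against the other cells, 5.45 against progenitor and 4.15 against basal cells. Among these markers the haemoglobin gene Hba-a1, whose counts may be split with Hba-a2, stood at 22.2 CPM and was found in 5.53% of the cells.

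Within the mature luminal cells, spread was measured as the variance over the mean of the counts thinned to 1000, which is about 1 where counts scatter at random. Over 802 genes with a mean of 0.2 or more the median was 1.12. The highest quotients were 113 for Ctsj and 47.0 for Ctsr, each from few cells, followed by 16.7 for Gsn, gelsolin, and 12.9 for Dcn. Without the 11 collagen-containing cells the level of Gsn went from 1551 to 1216 CPM. Slpi, a secreted protease inhibitor, had a quotient of 11.1, with 10 cells holding 36.8% of its counts. The 10 richest cells held 22.6% of the counts of Gsn and 21.8% of those of Dcn, so concentration in few cells was a matter of degree.

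The fibrinogen genes Fgb and Fgg had quotients of 9.81 and 8.84, and 10 cells held 19.8% and 13.1% of their counts. Also among the 15 were the immediate-early genes Fos, Jun, Junb and Klf2, with 9.18, 7.93, 6.91 and 6.53, and Glul, glutamine synthetase, with 7.81. Areg had a quotient of 5.78: the median cell had 1 count of it, the cell at the 90th percentile 9 and the highest 30. Ptn had 5.72 but was found in nearly every cell, with a median of 17 counts, 31 at the 90th percentile and 58 in the highest cell. Ly6d, with 5.42, was the last of the 15. Areg was thus at 0 in many thinned cells and high in some, whereas nearly all cells had Ptn.

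**Figure D5:**
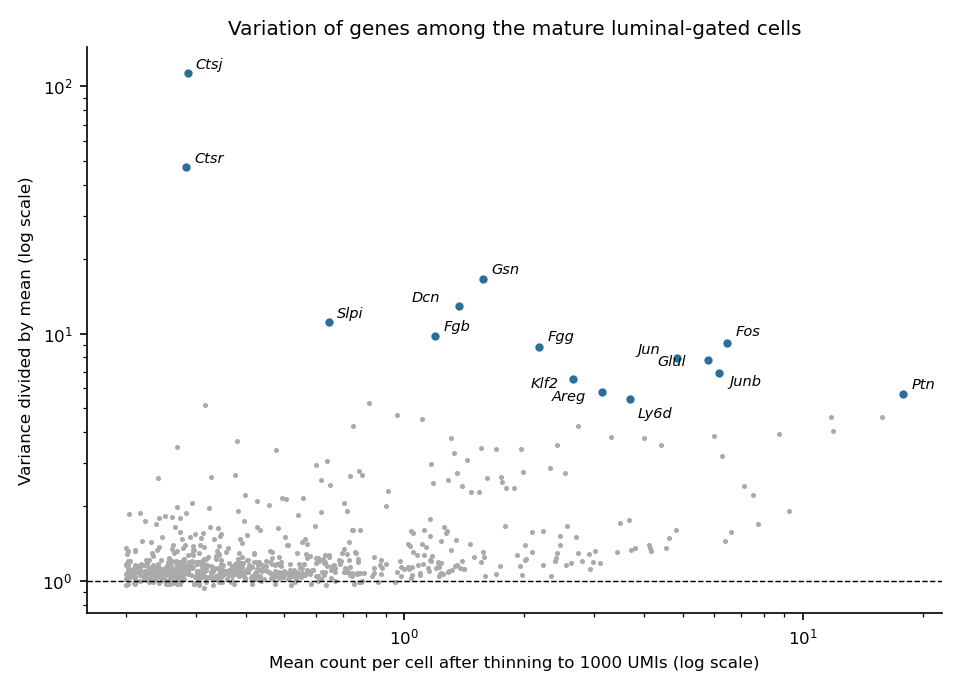
Variance over mean of counts thinned to 1000 in 955 mature luminal cells, against the mean count, 1 point a gene, both axes logarithmic; the line marks 1. The 15 genes with the highest quotient are named, from 113 for Ctsj to 5.42 for Ly6d, and the median of all 802 genes is 1.12.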

How the data were processed

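Single-cell RNA counts of 2 libraries, total epithelium and sorted basal cells, were analysed. The authors mapped reads to mm10 and counted with Cell Ranger (1.2.1 per the submitters' processing notes; the paper's methods name another version), and deposited whole-number counts of unique molecules for each gene and cell, without normalization. The deposited barcodes, 3302 and 4771, are as many as the cells in the labels; the paper states slightly different numbers for both libraries. Choice of barcodes, collapse of molecules and loss of reads shared between paralogs happened before deposit; whether strand was used is not given in the sources used here.

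The cells, lists and comparisons were chosen with earlier results of these data known. Counts were summed over the cells of each set and divided by the total (CPM). Total epithelium held 9227651 counts, with a median of 2425.5 a cell. Ratios carry exact conditional intervals, levels exact Poisson and shares exact Clopper-Pearson intervals, all 95%. With 1 library a condition no test was possible. Named genes were the 20 highest and 10 lowest ratios against the other cells and 10 of each against progenitor and basal cells, at 100 CPM or more in the higher set, the 15 most variable, members of 21 lists, and genes of 10 co-detection pairs. Which of these are described in words was settled with their values in view, as were the share of counts in the richest cells, the removal of collagen-containing cells and 9 further pairs. Of these genes, 1 is not reported here. Each alternative is listed with the results it moved. The computation of ratios was tested on simulated data. Of 27998 gene IDs 27645 had a position in GENCODE M21 (GRCm38); promoters came from RefSeq (GRCm38.p6). Python 3.11.15, numpy 2.4.6, scipy 1.17.1, pandas 2.3.3, scanpy 1.11.5 and matplotlib 3.10.9 were used.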

Additional observations from a re-analysis of the deposited data

Results flagged for a closer look

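The same limits on counts found 4 cells in the library of sorted basal cells, which no comparison used. They were 4 of 4771 cells (0.084%, exact interval 0.023 to 0.215%). Their depths were 284, 1018, 1060 and 1242 counts in a library with a median of 487. Together they held 112 counts of Prlr, Stc2 and Gpx3 but 0 of Areg and 0 of Cxcl15. Ly6d, with 4 counts, and Ptn, with 14, were each found in 1 of the 4. Keratins 8, 18 and 19 were found in 1 of the 4, and the collagens Col1a1, Col1a2 and Col3a1 in 3 of them, with 34 counts. The markers of mature luminal cells that the limits did not use were thus at 0 in most of these cells.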

How the results depend on the processing

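No paired analysis was possible because there is 1 library a condition and the mice were pooled. The number of mature luminal cells was 1044 with a limit of 5 counts, 788 with 20, 985 with counts scaled to one depth, 960 and 987 with the basal and progenitor limits at 4 and 16, 965 without collagen-containing cells and 974 without cells with endothelial or immune counts, the last 2 chosen after seeing the data.

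A gene minimum of 10 counts gave 1539 higher and 2679 lower genes than in the other cells, 1834 lower than in progenitor and 2932 lower than in basal cells, and 2 higher cell cycle and 2 higher fibroblast genes. A minimum of 1 count gave 3124 and 2856 against the other cells, 2928 lower than in progenitor cells, 3208 and 4045 against basal cells, and 2 higher genes each of the cell cycle, fibroblast and Schwann, adipocyte and red cell lists. A minimum of 200 gave 542 and 735, 1038 and 548, and 987 and 856 against the 3 references, with 1 higher growth factor gene and 0 in the cell cycle and red cell lists. These counts move with the number of genes tested. Scaling by the median of ratios gave 1302 genes higher than in progenitor cells.

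Averaging CPM over cells gave 9 higher keratin and junction, 5 secretory pathway and 1 Notch genes, and thinning gave 9, 5, 1 and 2 cell cycle genes. With progenitor and basal cells alone as reference there were 8 keratin, 2 Notch, 10 fibroblast and 2 endothelial genes. A limit of 5 counts gave 2 cell cycle genes, and leaving out cells with endothelial or immune counts gave 1 higher endothelial gene. The cause of these moves was not tested. Of 940 recomputed values of named genes 807 stayed within their interval, 132 moved and 1, Ctsj, reversed, from 4.30 to -0.58 with a limit of 20 counts, a move of 4.88 that was the largest. Of the 940, 158 moved by over 1.5-fold, 47 of them with thinned cells, 34 with limits on scaled counts, 26 with a limit of 20, 21 each with progenitor and basal cells as reference and with averaged CPM, 7 with a limit of 5 and 2 without doublets. With progenitor and basal cells alone R3hdml went from 3.12 to 7.47 and Cxcl15 from 3.12 to 7.20, and with thinned cells Muc15 from -9.09 to -5.43. With 3196.5 counts in the median cell, shares of cells with Esr1 or Pgr are limited by depth.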

Other observations

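Further pairs of genes were read in the 955 mature luminal cells thinned to 1000 counts, chosen after the values of single genes were seen, so they describe these cells and carry no test. The fibrinogen genes Fgb and Fgg, which encode 2 chains of the clotting protein, were found together: Fgg was in 75% (68.4 to 80.8%) of the 200 cells with Fgb and in 36.2% (32.7 to 39.7%) of those without. Fgb and Tph1 parted. Of the 308 cells with Tph1, 12.7% (9.16 to 16.9%) had Fgb, against 24.9% (21.6 to 28.4%) of the cells without. Areg was in 67.9% (62.3 to 73.0%) of the cells with Tph1 and 61.1% (57.2 to 64.8%) of the others. It was in 71.5% of the cells with Fgb against 61.1%.

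The cathepsin genes Ctsj and Ctsr shared cells, with Ctsr in 5 of the 9 thinned cells with Ctsj against 2.54% of the others. Near-identical sequence between them was not checked. Upk3a was in 0 of 29 cells with Ctsr, which allows up to 11.9%, and in 5.94% of the others. The immediate-early gene Fos was in 91.2% of 559 cells with Klf2, with a mean of 8.18 counts, and in 78.5% of the cells without Klf2, with a mean of 4.03. Gsn was in 63.0% (56.4 to 69.3%) of 227 cells with Dcn and 52.5% (48.8 to 56.2%) of the others, and Areg in 69.6% and 61.3% of the same sets.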
